A study of Mus musculus with 15 samples.

Results

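The genes described here are mitotic kinases and parts of the cohesin cycle. The list held 8 genes, Plk1, Plk4, Aurka, Aurkb, Rad21, Smc3, Stag1 and Espl1, and a gene was taken where a probe of the array carried its name. Probes were found for 7 of the 8 genes, 18 probes among 40726 autosomal ones, and Aurkb, for which no probe carried the name, was dropped. The array measured DNA, so every value below is a copy-number ratio and says nothing of expression. The tissues came from 3 mice of a C57BL/6.129 background in which Cre driven by the Albumin promoter, active in hepatocytes, recombines floxed Mad2l1 (Mad2 in the labels) and Trp53 (p53). Mouse 3151, a female of 16.4 months with the genotype Mad2(f/f) p53(f/+), gave HCC 1, HCC 2 and unaffected liver 1. Mouse 3760, a male of 13.8 months, gave HCC 3 and unaffected liver 2, and mouse 4033, a male of 13.9 months, gave HCC 4, HCC 5 and unaffected liver 3; both were Mad2(f/f) p53(f/f). All 5 hepatocellular carcinomas (HCC) and all 3 unaffected livers thus carried the same Cre and the same floxed Mad2l1 alleles, and genotype, sex and mouse cannot be told apart. Each DNA was hybridized against liver DNA of a wild-type mouse of the opposite sex. Both dye orientations were available for 7 tissues and 1 for HCC 3, giving 15 arrays. Per the study, HCC held infiltrating immune cells and surrounding tissue in which recombination may have been incomplete, and a smaller change in every cell cannot be told apart from a larger change in fewer cells.

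Chromosome segregation depends on these genes. Plk1 and Aurka are kinases that drive mitotic entry, centrosome maturation and spindle assembly, and Plk4 starts the duplication of centrioles. Rad21, Smc3 and Stag1 are subunits of cohesin, the ring that holds sister chromatids together, and Espl1 is separase, the protease that cuts the Rad21 subunit at anaphase. Separase is held back until the spindle assembly checkpoint, of which Mad2l1 is a part, is satisfied. Most hepatocytes of a normal adult liver rest, and tumor cells divide. Per the study, livers that lose Mad2l1 and Trp53 form regeneration nodules, a sign of repair. Whether the unaffected livers here were at rest was not measured.

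The probe sequences are shown for the members on which the results turn, read from the array files. Positions are those of the same files, which do not name a genome build, and the annotation of exons at these positions was not used here. Rad21 (chr15:51805372-51805431, chr15:51814201-51814260 and chr15:51818048-51818107) and Espl1 (chr15:102136375-102136434 and chr15:102154670-102154729) are shown because they lie on the chromosome whose ratio was high in every HCC. Plk1 (chr7:129304367-129304425 and chr7:129308948-129309007) is shown because its probes gave different values in several tissues. For Stag1, the 3 probes at chr9:100705826-100705885, chr9:100705856-100705915 and chr9:100705886-100705945 overlap, and the probe at chr9:100857285-100857344 gave different values in the 2 dye orientations. Capitals mark the bases shared with an overlapping probe in Stag1 probes 1 to 3, and the run of a single base in Plk1 probe 1 and Stag1 probe 5.
Rad21 probe 1: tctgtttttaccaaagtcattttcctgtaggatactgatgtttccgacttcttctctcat
Rad21 probe 2: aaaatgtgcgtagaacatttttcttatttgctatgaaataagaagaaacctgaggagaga
Rad21 probe 3: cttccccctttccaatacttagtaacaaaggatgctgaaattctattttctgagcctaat
Espl1 probe 1: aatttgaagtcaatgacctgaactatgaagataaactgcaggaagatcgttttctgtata
Espl1 probe 2: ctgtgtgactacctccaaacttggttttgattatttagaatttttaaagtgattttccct
Plk1 probe 1: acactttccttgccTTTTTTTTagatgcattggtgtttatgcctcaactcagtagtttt
Plk1 probe 2: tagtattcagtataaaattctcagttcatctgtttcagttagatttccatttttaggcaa
Stag1 probe 1: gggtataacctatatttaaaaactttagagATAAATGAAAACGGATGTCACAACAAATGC
Stag1 probe 2: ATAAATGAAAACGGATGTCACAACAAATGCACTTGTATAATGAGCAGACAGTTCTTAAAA
Stag1 probe 3: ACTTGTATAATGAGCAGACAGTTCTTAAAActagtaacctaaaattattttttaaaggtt
Stag1 probe 5: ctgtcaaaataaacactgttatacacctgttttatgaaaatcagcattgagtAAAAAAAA

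The 18 member probes were poor in G and C, with a median GC content of 32.5% (range 25.0% to 40.4%), against 36.7% over all autosomal probes. Signals were well above background at every member spot except 1 spot of Stag1 probe 5 on 1 array of unaffected liver 2 and 1 on 1 array of unaffected liver 3. A value is the log2 ratio of tissue to reference DNA after each array was centered on its autosomal median. The level of a gene is the mean of its probes. The relative value of a gene is its level minus the median of its chromosome, and the local deviation of a probe is its value minus the mean of the 2 neighboring probes on either side. The spread of the local deviation over all probes, a measure of noise, ran from 0.096 to 0.23 (scaled median absolute deviation per tissue). The sex chromosomes set each tissue where its labels put it, with X medians of 0.32 to 0.94 in the female tissues and -1.35 to -0.67 in the male ones.

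The single probes of the targeted genes did not follow the genotype in every tissue. The Mad2l1 probe was at -1.22 in HCC 1 and -0.71 in HCC 2 but between 0.076 and 0.59 in the other 3 HCC. In unaffected livers 1 to 3 it was at 0.012, 0.36 and 0.69, so that every HCC was below its own liver by level. Relative to the chromosome median, HCC 5 (0.91) was above its own liver (0.67), and the other HCC were below theirs. The Trp53 probe was between -2.07 and -1.06 in 4 HCC and at -0.19 in HCC 3, above its own liver at -0.88. Whether these probes lie inside the deleted parts was not determined here. Without HCC 3, which was measured on 1 array, the level differences between HCC and liver described below were 0.53 for Espl1, 0.50 for Rad21, -0.24 for Plk4, -0.21 for Plk1, 0.053 for Stag1, -0.043 for Aurka and 0.027 for Smc3, none past the adjusted threshold in limma.

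Rad21 and Espl1, both on chromosome 15, had higher levels in all 5 HCC than in all 3 unaffected livers, and the other 5 members did not separate the groups. None of the 7 members passed the limma test on levels, which called 0 (0%) of 19929 genes at an adjusted p under 0.05. Without the adjustment, 2 of the 7 members had a p under 0.05, against 8.12% of all genes. All 5 HCC lay above all livers for 6.06% of all genes and all 5 below for 3.72%. On chromosome 15, however, 74.5% of 793 genes had all HCC above all livers and 90.2% had an unadjusted p under 0.05, so that the separation of Rad21 and Espl1 was one they shared with most genes of their chromosome.

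**Figure D1:**
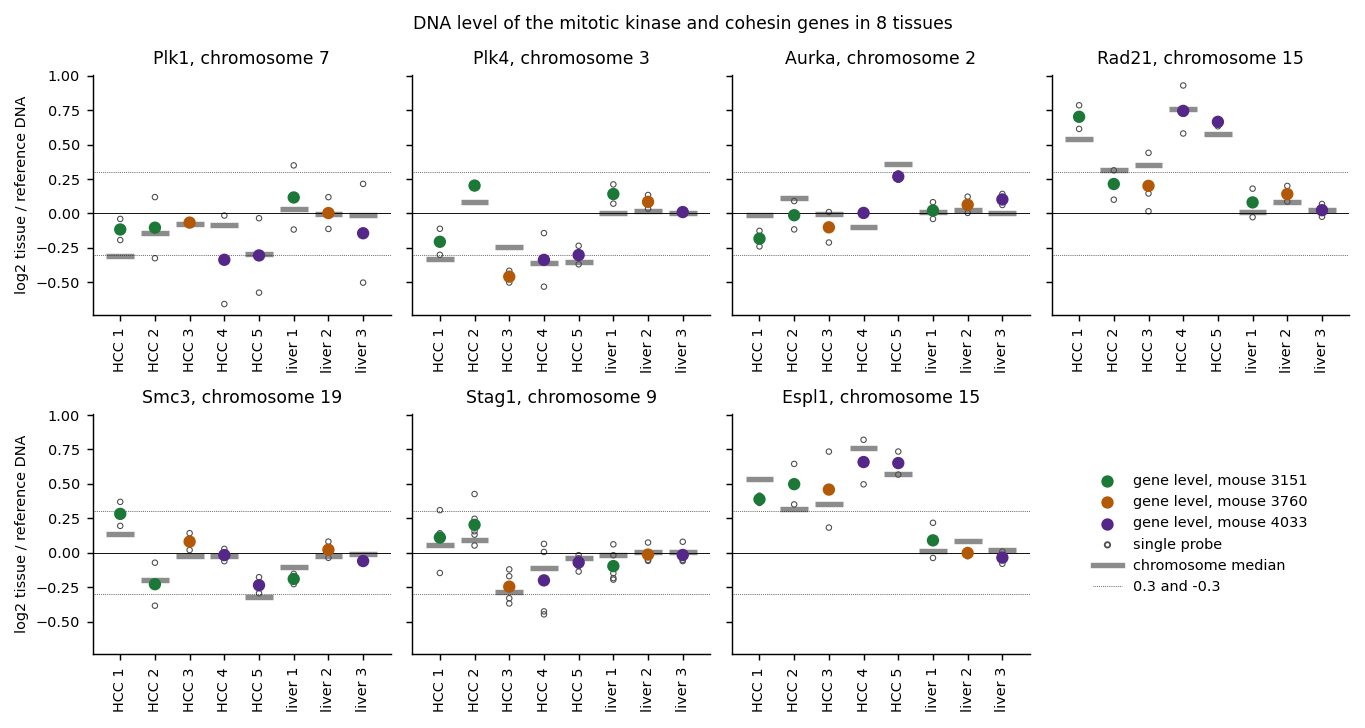
Log2 ratio of tissue to reference DNA for the 7 genes in 5 HCC and 3 unaffected livers; filled points are gene levels colored by mouse, open circles single probes, gray bars the chromosome median and dotted lines the limits of 0.3 and -0.3. Gene levels track the gray bars, and Rad21 and Espl1 stand above 0 in all HCC.

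Among the kinases, Plk1 had levels of -0.12, -0.10, -0.066, -0.34 and -0.30 in HCC 1 to HCC 5, and of 0.12, 0.0030 and -0.14 in unaffected livers 1 to 3. All 5 HCC were below their own liver, by 0.069 to 0.23 (HCC 3 the least and HCC 1 the most), which held for 7.2% of all genes, but the groups overlapped. In HCC Plk1 averaged -0.19 ± 0.13 (SD, n = 5), and in unaffected liver it averaged -0.0082 ± 0.13 (SD, n = 3). The difference of -0.18 (SE 0.13, 95% interval -0.46 to 0.10) did not pass limma's test (adjusted p = 0.723). Its chromosome 7 median differed by -0.19, so that the relative difference was 0.0092 (SE 0.099).

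Aurka, whose partner Tpx2 targets it to the spindle, had levels of -0.18, -0.013, -0.10, 0.0038 and 0.27 in HCC 1 to HCC 5, against 0.021, 0.063 and 0.10 in the livers. HCC 5 was the only HCC above the livers, and its chromosome 2 median of 0.36 was likewise the highest among the HCC. The difference of the group means was -0.067 (SE 0.13, 95% interval -0.35 to 0.22, adjusted p = 0.881 in limma). Relative to chromosome 2, Aurka was lower in 4 of 5 HCC than in all 3 livers, with a difference of -0.12 (SE 0.074, limma adjusted p = 0.999), the largest relative difference of the 7 members.

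Plk4 had levels of -0.21, 0.20, -0.46, -0.34 and -0.30 in HCC 1 to HCC 5. The livers were at 0.14, 0.084 and 0.010, so that 4 HCC were below all livers and HCC 2 was above them. The difference was -0.30 (SE 0.15, 95% interval -0.62 to 0.025) and did not pass the limma test (adjusted p = 0.649). The chromosome 3 median had the same pattern, at -0.33, 0.084, -0.25, -0.36 and -0.35 in HCC 1 to HCC 5 and between 0.0056 and 0.015 in the livers. After it was taken off, the difference was -0.048 (SE 0.086). Without HCC 3 it was 0.011, and the level difference -0.24.

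Of the cohesin subunits, Smc3, one of the ATPases of the ring, was at 0.28, -0.23, 0.081, -0.017 and -0.24 in HCC 1 to HCC 5 and at -0.19, 0.022 and -0.060 in the livers. The HCC lay on both sides of the livers, and the difference was 0.053 (SE 0.15, 95% interval -0.26 to 0.36, adjusted p = 0.914 in limma). Its direction turned with centering on the mode of the ratios (-0.0015). Relative to chromosome 19, Smc3 was above its own liver in 5 of 5 HCC, by 0.059 to 0.24, which held for 3.3% of all genes, while 4.11% had all 5 HCC below their own liver. That relative difference, 0.096 (SE 0.067), did not pass the test either (limma adjusted p = 0.999).

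Stag1, a subunit that binds Rad21 in the ring, had levels of 0.11, 0.20, -0.25, -0.20 and -0.070 in HCC 1 to HCC 5. The livers were at -0.097, -0.013 and -0.016. Both HCC of mouse 3151 were above all livers, HCC 3 and HCC 4 were below all of them and HCC 5 was among them, and the means differed by 0.0014 (SE 0.14, 95% interval -0.29 to 0.30, adjusted p = 0.999 in limma). With centering on the mode the difference was -0.053. The chromosome 9 median was 0.055 and 0.093 in HCC 1 and HCC 2 and -0.29, -0.11 and -0.039 in HCC 3 to HCC 5.

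Rad21, the subunit that separase cleaves, had levels of 0.70, 0.21, 0.20, 0.74 and 0.67 in HCC 1 to HCC 5. The livers were at 0.080, 0.14 and 0.024, and no HCC reached down to them in these averaged levels. By single orientation the groups met. With the tissue in green, HCC 2 (0.18) was below unaffected liver 2 (0.24), and HCC 1, HCC 4 and HCC 5 were between 0.64 and 0.81. With the tissue in red, HCC 3 and unaffected liver 1 were both at 0.20. In HCC 3, probe 1 (0.016) was below all livers (0.069 to 0.20), and probes 2 (0.44) and 3 (0.14) were above them. All 5 HCC were above their own liver, by 0.059 in HCC 3 to 0.72 in HCC 4, which held for 8.72% of all genes and 84.9% of those on chromosome 15. Rad21 averaged 0.51 ± 0.27 (SD, n = 5) over the HCC against 0.082 ± 0.059 (SD, n = 3) over the livers. Their difference, 0.42 (SE 0.16, 95% interval 0.089 to 0.76, unadjusted p = 0.0164, adjusted p = 0.439 in limma), did not pass the adjusted threshold. Without HCC 3 it was 0.50, with an adjusted p of 0.238 in limma.

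Espl1 had levels of 0.39, 0.50, 0.46, 0.66 and 0.65 in HCC 1 to HCC 5 and at 0.090, -0.0023 and -0.035 in the livers. The lowest HCC, HCC 1, was 0.30 above its own liver, and HCC 4 and HCC 5 were 0.69 above theirs. Espl1 averaged 0.53 ± 0.12 (SD, n = 5) over the HCC against 0.017 ± 0.065 (SD, n = 3) over the livers, which is 0.51 higher (SE 0.13, 95% interval 0.24 to 0.78). Its p was 0.00104 before and 0.193 after adjustment in limma, so that the largest difference of the 7 members was not called. The 793 genes of chromosome 15 had a median difference of 0.47, the central part from the 5th to the 95th percentile running from 0.29 to 0.62, with Rad21 at the 33.2 and Espl1 at the 69.5 percentile among them. Within the first of 2 scan days, which held HCC 3, HCC 5 and unaffected livers 2 and 3, the mean of HCC minus that of liver was 0.35 for Rad21 and 0.57 for Espl1. Within the second, which held HCC 1, HCC 2, HCC 4 and unaffected liver 1, it was 0.47 and 0.43. The second-day values rest on 1 liver, which is not from the mouse of HCC 4.

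The study took a chromosome's mean ratio of 0.3 in either direction as a gain or loss, and the same limit was applied to the gene levels. For focal changes of genes the study set 0.3 on ratios normalized to the chromosome. That measure is nearer to the relative values, which are counted in the next paragraph. Of the 35 member levels in HCC, 8 were at or above 0.3 and 5 at or below -0.3, against 18.1% and 18.7% of all gene levels in HCC. The 8 were Espl1 in all 5 HCC and Rad21 in HCC 1, HCC 4 and HCC 5. The 5 were Plk4 in HCC 3, HCC 4 and HCC 5 and Plk1 in HCC 4 and HCC 5. None of the 21 member levels in liver passed either limit, against 1.48% and 2.75% of all gene levels in liver. The number below depended on the baseline, with 8 above and 8 below when the arrays were centered on the mode, 8 and 3 when centered on all probes, and 8 and 2 with normexp background correction. Which levels made up the 8 above also changed. Espl1 in HCC 1 was under the limit with mode centering (0.275) and with the tissue in red only (0.278). With mode centering Rad21 in HCC 2 (0.304) was above it. The mode lay above the autosomal median by 0.25 in HCC 5 and 0.11 in HCC 1, below it by 0.091 in HCC 2, and nearer to it in the other tissues.

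The levels of the members were close to their chromosome medians. The sign of HCC minus own liver was the same for gene and chromosome in 32 of 35 pairs of member and HCC. The level was nearer to the chromosome median than to 0 in 31. The shares of all genes for these counts were not computed. Of the 13 member levels past 0.3 in either direction, 10 had a chromosome median past it the same way. Of the 16 pairs with the chromosome median past 0.3, 10 had the level past it the same way. The median size of HCC minus own liver was 0.21 for levels and 0.10 for relative values. Over all genes the corresponding medians ranged from 0.18 to 0.31 and from 0.066 to 0.14 between HCC. No relative value of a member reached 0.3 in either direction in any tissue, while 4.03% of all gene values in HCC did above and 4.74% below, and 1.44% and 2.38% did in liver. Compared with genes of the same number of probes, 0 of the 35 relative values in HCC and 1 of 21 in liver lay outside the central range from the 5th to the 95th percentile, the 1 being Plk1 in unaffected liver 3. In limma's fit of relative values, 0 (0%) of 19929 genes were called and 1.55% had an unadjusted p under 0.05, as did 0 of the 7 members. All HCC lay above all livers in relative value for 0.758% of all genes and below for 1.25%, and for 0 of the 7 members in either direction.

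**Figure D2:**
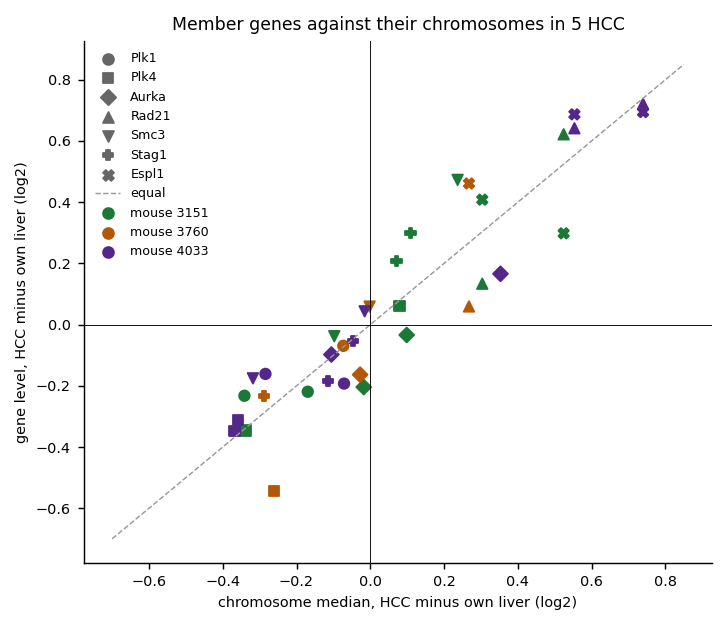
HCC minus own liver for the gene level (vertical, log2) against the same difference of its chromosome median (horizontal, log2), with 1 point for each of 7 genes and 5 HCC, a symbol per gene and a color per mouse. Points follow the dashed line of equality, the farthest below it being Plk4 in HCC 3.

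Rad21 and Espl1 lie 50.3 Mb apart, and in HCC 2 they had different surroundings. Medians of consecutive sets of 50 probes along chromosome 15 in HCC 2 ran from 0.13 to 0.29 in the 21 sets up to 30.0 Mb beyond Rad21 and from 0.53 to 0.65 in the 12 sets from 31.4 Mb on, a step of 0.38 between neighbors. Rad21 (0.21) was on the low side and Espl1 (0.50) on the high side. The median of the 72 other probes within 5 Mb of Rad21 was 0.25 with the tissue in red and 0.27 with it in green, and that of the 299 probes around Espl1 was 0.62 and 0.56. In the other 4 HCC the largest step between neighboring sets was 0.17, in HCC 1, and in own liver 1 it was -0.099. The chromosome median of HCC 2, 0.32, therefore mixed both sides, and the relative values of Rad21 (-0.10) and Espl1 (0.18) in that tumor had opposite signs. Against the medians of these windows in the averaged orientations (0.25 and 0.60), Rad21 was at -0.032 and Espl1 at -0.10. The step was seen in the values and was not tested.

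**Figure D3:**
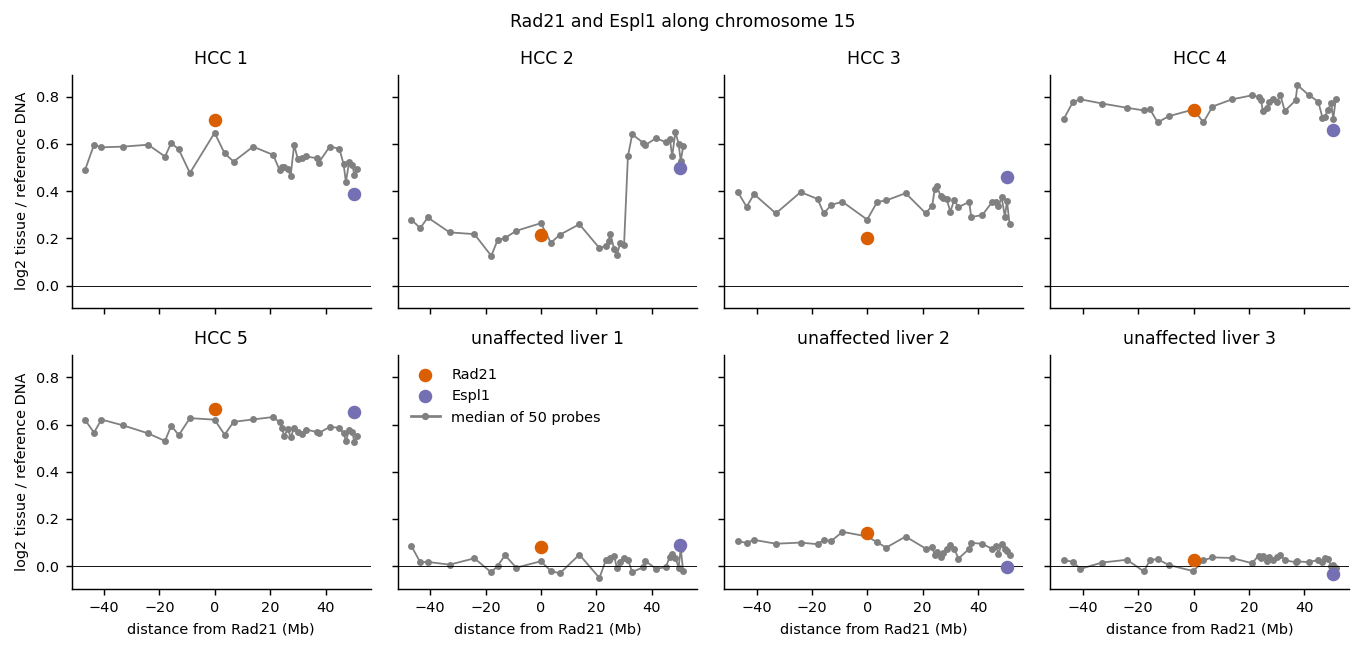
Log2 ratio of tissue to reference along chromosome 15 (distance from Rad21 in Mb), with gray points for the median of each 50 consecutive probes (31 in the last) and colored points for the levels of Rad21 and Espl1. HCC 2 steps from between 0.13 and 0.29 to between 0.53 and 0.65, with Rad21 and Espl1 on opposite sides.

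Over the 35 pairs of member and HCC, the median of other probes within 5 Mb of the gene differed from the chromosome median by a median size of 0.016, with Espl1 in HCC 2 at 0.29. Gene levels differed from these windows by a median of 0.088 and at most 0.24, for Plk1 in HCC 4.

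In limma's fit of local deviations, 0 (0%) of 40650 probes were called and 1.5% had an unadjusted p under 0.05. Of the 18 member probes, 0 had an unadjusted p under 0.05, and for 0 of them did all HCC lie on one side of all livers, against 0.839% of all probes above and 0.992% below. The 2 flanking probes on a side can belong to the same gene. Those of Rad21 outside the gene carried the names D530033C11Rik and Aard or none. The Aard probe, 59.1 kb beyond probe 3, was at 0.50, 0.28, 0.23, 0.60 and 0.46 in HCC 1 to HCC 5, and between -0.067 and 0.20 in the livers. In unaffected liver 1, however, a D530033C11Rik probe was at 0.43, above its 0.32 in HCC 2, and the unnamed probe at 0.37, above its 0.21 in HCC 3. Those of Espl1 carried AK082832, D15Mgi27, Myg1 and Aaas, and the Myg1 probe, 13.6 kb beyond probe 2, was at 0.56, 0.54, 0.20, 0.87 and 0.64 in the HCC. By value, all HCC were above all livers for 2 of the 4 Rad21 flanks outside the gene and for 4 of the 4 Espl1 flanks. The same held by level for 74.5% of chromosome 15 genes, and the share over single probes was not computed. Of the 4 Plk4 flanks 1 had all HCC below all livers, as 3.72% of all genes had by level, and the flanks of the other members had none on either side. In HCC 3 the probes of these genes disagreed, Rad21 at 0.016, 0.44 and 0.14 and Espl1 at 0.18 and 0.73, on the tissue with the widest local spread (0.23).

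Around Plk4, the flanks were Intu, Mfsd8 and an unnamed probe, and with Plk4 probe 2, which lies 0.77 kb away, they averaged -0.42, -0.040, -0.15, -0.36 and -0.28 in HCC 1 to HCC 5 around probe 1. The unnamed probe was at -0.80 in HCC 2. The Plk4 probes were above that average in HCC 2 (0.20 and 0.21), where the Intu probes were at 0.27 and 0.17. In HCC 3 the Plk4 probes were below the average (-0.42 and -0.50). Aurka was flanked by 2010011I20Rik, AK078667 and an unnamed probe. One 2010011I20Rik probe stood at 0.77, 0.97 and 0.76 in HCC 1, HCC 2 and unaffected liver 1, the tissues of mouse 3151, and between -0.50 and 0.017 in the others, while the Aurka probes stayed between -0.24 and 0.29. Smc3 was flanked by AK158034, AK039111 and AK142175, and an AK142175 probe was at -1.22 in unaffected liver 1. Stag1 was flanked by Nck1, Tmem22, Pccb and an unnamed probe, as well as by its own probes, so that its local deviations set its probes partly against each other.

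The Plk1 probes lay far apart in several tissues, and most widely in those of mouse 4033. Probe 2 was at -0.66 in HCC 4, -0.58 in HCC 5 and -0.50 in unaffected liver 3, whereas probe 1, 4.6 kb away, was at -0.015, -0.035 and 0.21. In unaffected liver 3 the distance between the probes, 0.72, was wider than in 99.1% of genes with 2 probes, and in HCC 4 and HCC 5 it was wider than in 95.6% and 97.6%. Outside that mouse it was 0.44 in HCC 2, 0.47 in unaffected liver 1 and 0.23 in unaffected liver 2, wider than in 90.4%, 90.3% and 88.9% of such genes, and in mouse 3151 probe 2 was above probe 1. Probe 2 was low in unaffected liver 3 in both orientations, at -0.22 with the tissue in red and -0.78 in green. In mouse 3760 it was at -0.059 in HCC 3 and -0.11 in unaffected liver 2, and in mouse 3151 at -0.040 and 0.12 in the HCC and 0.35 in the liver. The nearest Ern2 probe, 6.7 kb further on, was at -0.51, -0.45 and -0.23 in HCC 4, HCC 5 and unaffected liver 3, at 0.033 and 0.056 in HCC 3 and unaffected liver 2, and at 0.0052, 0.21 and 0.45 in HCC 1, HCC 2 and unaffected liver 1. The next Ern2 probe was low in HCC 4 (-0.61) and HCC 5 (-0.47) but at 0.15 in unaffected liver 3 and -0.62 in unaffected liver 1. With the own liver taken off, Plk1 was at -0.19 in HCC 4 and -0.16 in HCC 5, so that neither of the levels past -0.3 stayed past it.

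**Figure D4:**
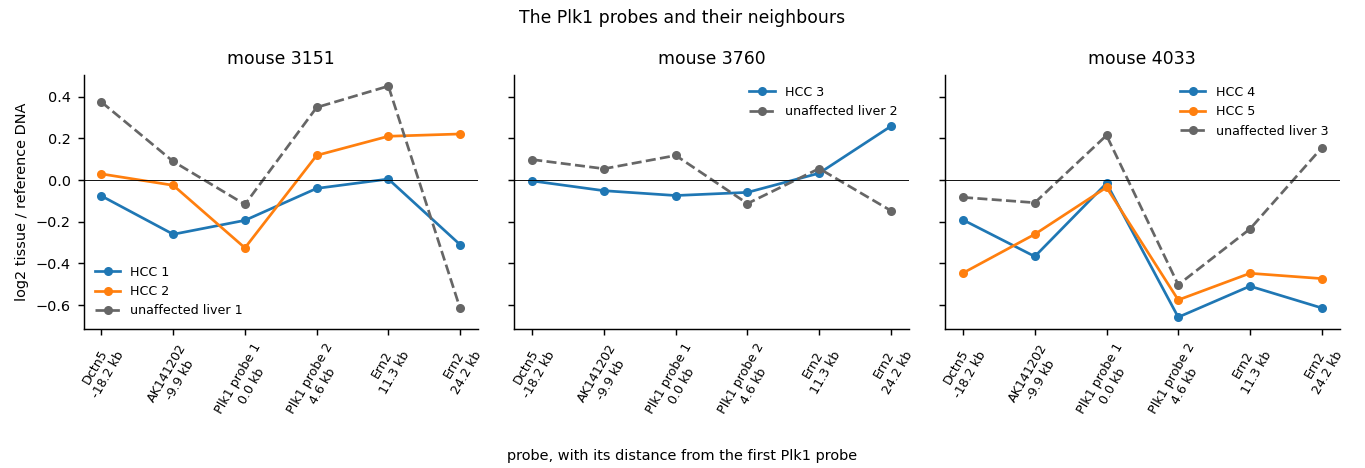
Log2 ratio of tissue to reference for the 2 Plk1 probes and the neighboring probes on either side, in order along chromosome 7 with distances in kb, for the tissues of each mouse (HCC solid, unaffected liver dashed). In mouse 4033 all 3 lines drop from probe 1 to probe 2, to between -0.66 and -0.50.

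The overlapping Stag1 probes gave a check on single-probe noise. Probes 1 and 3 share no base with each other and each shares 30 bases with probe 2. Their values were 0.31, 0.14 and 0.13 in HCC 1 and 0.064, -0.20 and 0.0062 in HCC 4, so that even probes that share sequence lay on both sides of 0 in HCC 4. Stag1 probe 5, whose sequence ends in a run of 8 A, was lower with the tissue in red than in green in all 7 tissues with both orientations. In HCC 1 it was at -1.02 in red and 0.73 in green, a difference of -1.75, where the median size of that difference over all probes was 0.23. It was the member probe with the widest difference in 4 of the 7 tissues. With dim probes, among them this one, left out, the Stag1 difference between groups was 0.014 in place of 0.0014.

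**Figure D5:**
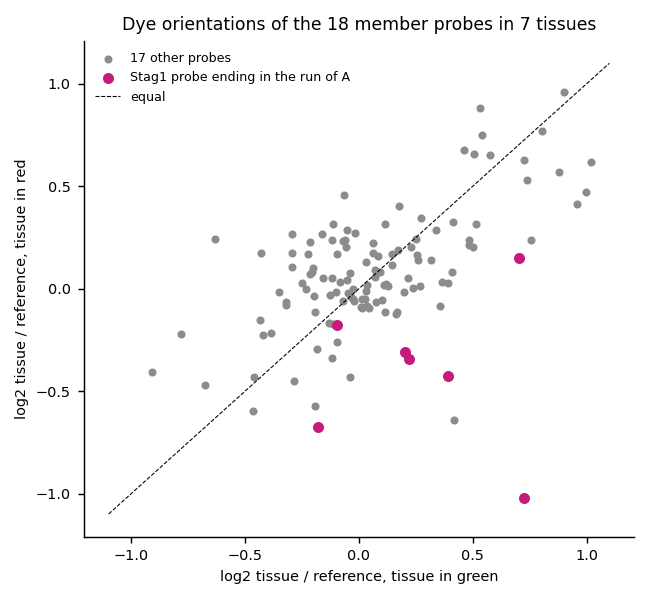
Log2 ratio of tissue to reference of the 18 member probes in 7 tissues, with the tissue in red (vertical) against the tissue in green (horizontal). The Stag1 probe ending in the run of 8 A lies below the dashed line of equality in all 7 tissues.

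Tumors of 1 liver differed in some members, mostly in the direction of their chromosomes. In mouse 3151, HCC 1 minus HCC 2 was -0.41 for Plk4 and 0.51 for Smc3, where the medians of chromosomes 3 and 19 differed by -0.42 and 0.33. Rad21 was 0.49 higher in HCC 1 and Espl1 0.11 lower, on opposite sides of the step in HCC 2. The median of their chromosome was 0.22 higher in HCC 1, so that Espl1 had the opposite sign to it. In mouse 4033, HCC 4 minus HCC 5 was -0.26 for Aurka and 0.22 for Smc3, with chromosome medians that differed by -0.46 and 0.30. The levels of Espl1 (0.0074), Plk1 (-0.032) and Plk4 (-0.035) differed little between HCC 4 and HCC 5. Their chromosome medians differed by 0.19, 0.21 and -0.0098 in the same order. Plk1 thus had the opposite sign to its chromosome, and Espl1 hardly followed its own. With 1 tissue on each side, no test was possible.

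Related genes were taken from lists that also hold partners of the members, and 0 genes of any of them passed the adjusted threshold in either direction. Of 20 listed mitotic kinases and activators, 18 were measured, with a median difference of -0.077 against -0.0079 over all genes. Those with the smallest p were Cdca8 (-0.27, SE 0.12) and Incenp (-0.23, SE 0.15), both of the chromosomal passenger complex of Aurora B, and Pkmyt1 (-0.33, SE 0.17), an inhibitory kinase of Cdk1. Levels of the list in HCC were at or above 0.3 in 11 of 90 cases and at or below -0.3 in 20, where 18.1% and 18.7% of all gene levels in HCC were.

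Of 15 genes for meiotic cohesin, cohesin loading, release and separase control, 14 were measured, with a median difference of 0.17 and relative to chromosome of 0.037. Smc1b, a meiotic cohesin subunit (0.54, SE 0.14), and Nipbl, which loads cohesin (0.47, SE 0.15), lie on chromosome 15, and Pds5b, a regulator of cohesin, on chromosome 5 (0.34, SE 0.13). Levels of the list were at or above 0.3 in 28 of 70 cases and at or below -0.3 in 6, against the same 18.1% and 18.7% of all gene levels. Counted from Rad21, Nipbl lies at -43.4 Mb and Smc1b at 33.1 Mb. In HCC 2 Nipbl was at 0.15 and Smc1b at 0.85. Ncaph2, a condensin II subunit 37.4 Mb beyond Rad21, was at 0.52 in HCC 2. These values fell on the same sides of the step as those of Rad21 and Espl1.

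For centriole duplication, 8 of 11 genes had autosomal probes, with a median difference of -0.20. Levels were at or below -0.3 in 16 of 40 cases and at or above 0.3 in 4, against 18.7% and 18.1% of all gene levels. Sass6, which builds the centriole cartwheel, lies on chromosome 3 like Plk4 (-0.36, SE 0.15), and Stil, a partner of Plk4 (-0.29, SE 0.14), and Cdk5rap2, a centrosome protein (-0.27, SE 0.17), on chromosome 4. Relative to chromosome the list had a median of -0.076. Of 8 condensin genes all were measured, with a median of 0.066, and the smallest p belonged to Ncaph2 (0.53, SE 0.14), the core ATPase Smc2 (-0.23, SE 0.13) and Ncapg of condensin I (0.18, SE 0.14). Of 14 genes of the anaphase promoting complex, which the checkpoint restrains, 13 were measured, with a median of -0.0030. Cdc23 (0.42, SE 0.16) and Anapc13 (-0.23, SE 0.13), subunits of the complex, and its activator Cdc20 (-0.37, SE 0.18) had the smallest p. Across the 5 lists, unadjusted p fell under 0.05 for 1, 3, 1, 1 and 1 genes in the order given, against 8.12% of all genes.

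Likeness between genes was measured by Pearson's r of levels over the 8 tissues, as a description, since the tissues share arrays, baseline and mice. Among the 100 genes most like each member, those on its own chromosome numbered 89 for Plk4, 89 for Stag1, 88 for Smc3, 65 for Rad21, 64 for Espl1, 30 for Plk1 and 29 for Aurka, where the chromosomes held 3.48% to 8.53% of all genes. Rad21 was most like Papd1 (r = 0.99, chromosome 18), Slc45a4 and Med30 (both r = 0.99, chromosome 15), and on other chromosomes AK042378 and Cd226. Espl1 was most like Tmprss12, Eif4a2 (both r = 0.98, the latter on chromosome 16) and Ttc35, and on other chromosomes Dsc2 and Pcdhb16. Plk4 was most like Adad1, Olfr869 and AK052860 (r = 0.99 each), and on other chromosomes Olfr869 (chromosome 9), Sdccag10 and 6330503K22Rik, the array's name for Ccp110. Plk1 was most like AK158044 (r = 0.99, chromosome 7), Nudc and Pmvk (r = 0.97 and 0.95, chromosomes 4 and 3), and then, on other chromosomes, Necap2. Aurka was most like AK198966 (r = 0.98) and AI842396 of chromosome 11 and Scn7a of chromosome 2, with AK138811 of chromosome 11 the third on another chromosome. Smc3 was most like Nhlrc2 (r = 0.97), Dmrt2 and Slc1a1 of chromosome 19, and on other chromosomes Hsd17b6, Nup107 and Olfr825 of chromosome 10. Stag1 was most like AK079078 (r = 0.98), Dlat and Setd2 of chromosome 9, and on other chromosomes Mat2a, AK146862 and 6720467C03Rik.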

How the data were processed

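Genomic DNA of 8 tissues was compared with reference liver DNA on 2-color Agilent 44K arrays. Per the labels the tissue was in Cy5 (red) on forward arrays and in Cy3 (green) on swaps. The authors deposited the scanner output of Agilent Feature Extraction 9.1.3.1, with background-subtracted and dye-normalized intensity per channel, and a table of log10 ratios that matched the scanner's ratios within 0.0001 at all 43020 non-control spots of every array. The log2 ratio of tissue to reference was taken from the processed signals and turned on swaps, so that positive values mean more DNA in the tissue. Control and outlier-marked spots were left out, spots of a probe averaged and arrays centered on the autosomal median, with no loess or quantile step. Orientations of a DNA were averaged, so that n counts tissues. The median signal was 3.72 to 7.95 times background and 0.191% to 2.31% of spots were not well above it.

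Gene levels (19929 autosomal names; 19 names on over 1 chromosome and 5968 probes named only by position were left out as genes), relative values and local deviations were compared between 5 HCC and 3 livers with limma 3.58.1 (R 4.3.3), two-sided, with Benjamini-Hochberg adjustment over all features. Tested on simulated data, the fit of levels recovered 77.5% of 200 changes of 1 log2 unit and 0% of those of 0.5, and that of relative values 92% and 50.5%. HCC and liver of the same mouse deviated together from their group means (r = 0.13 to 0.29 over probes, against -0.21 to 0.087 between mice), so the mouse was also fitted as a replicate block, which changed no call. Tissues of a mouse are not independent, and p-values without the block treat them as if they were. Slide (4) and scan day (2) were fitted as blocks, and other alternatives are given in the closing section. Aurkb was dropped because no probe carried that name. Of the lists, 6 genes had no probe under any name tried and 1 lay on X. The genes named are the members, the 3 of each list with the smallest p, the 3 most alike on any and on other chromosomes, and the flanks; the step on chromosome 15 and the 5 Mb windows were looked at after values had been seen. The members and lists were chosen with earlier results of these data known. Python 3.11.15, pandas 2.3.3, scipy 1.17.1 and matplotlib 3.10.9 were used.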

Additional observations from a re-analysis of the deposited data

Results flagged for a closer look

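Stag1 was on opposite sides of the own liver in the tumors of the female mouse and in those of the male mice. HCC minus own liver was 0.21 in HCC 1 and 0.30 in HCC 2 of the female p53(f/+) mouse, and -0.23, -0.18 and -0.054 in HCC 3 to HCC 5 of the male p53(f/f) mice, a difference of 0.41 between the means. The difference was not tested, and the share of all genes that split in this way was not computed. The chromosome 9 median did the same, at 0.071 and 0.11 against -0.29, -0.11 and -0.047, and relative to it Stag1 was at 0.14 and 0.19 against 0.056, -0.070 and -0.0073. Genotype, sex and mouse cannot be told apart here. Among 14 sets of 5 HCC values, none had a tissue far from the rest by Dixon's limit, a gap of 0.71 of the range. The relative values of Plk4 in HCC 3 (0.701) and of Aurka in HCC 4 (0.695) came close to it.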

How the results depend on the processing

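Settings were changed one at a time. Genes called by level stayed at 0, except for 1 with the slide as a block, AK004863 of chromosome 3, with a difference of -1.20 (adjusted p = 0.035 in limma) and named after its value was seen; genes called by relative value and probes called by local deviation were 0 in all settings, while 1618 genes, 308 genes and 611 probes had an unadjusted p under 0.05 in the settings reported. The exact permutation test over the 56 splits, whose smallest p is 0.0179, also called 0. No member passed the adjusted threshold under any setting. Level differences of Espl1 (0.42 to 0.57), Rad21 (0.36 to 0.50), Plk4 (-0.44 to -0.24), Plk1 (-0.25 to -0.12) and Aurka (-0.14 to -0.0050) kept their sign. With the replicate block by mouse the difference was 0.51 for Espl1 (adjusted p = 0.206 in limma), 0.40 for Rad21, -0.32 for Plk4, -0.17 for Plk1 and 0.071 for Smc3, and it turned for Stag1 (-0.015) and for the local deviations of Aurka (0.0023), Rad21 (-0.0049) and Espl1 (0.00062), and the block changed no call.

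Signs of the small differences turned elsewhere too, and the cause was not tested. By level, Smc3 was at -0.0015 with mode centering, and Stag1 at -0.053 with mode centering, -0.029 on forward arrays only, -0.0065 from the deposited ratios, -0.13 with slide and -0.024 with scan day as a block. Relative to chromosome, Plk1 was at -0.072 with slide and -0.0042 with scan day as a block, and Espl1 at -0.0087 with normexp and -0.045 on forward arrays only. By local deviation, forward arrays only gave -0.018 for Plk1, -0.035 for Rad21 and -0.015 for Stag1; slide as a block -0.091 for Plk4, 0.11 for Aurka, -0.010 for Rad21, -0.00074 for Stag1 and 0.039 for Espl1; scan day as a block -0.0091 for Plk4, 0.043 for Aurka and 0.011 for Espl1; and 5 flanking probes -0.025 for Rad21. With each tissue left out, level differences ran from -0.024 to 0.11 for Smc3 and -0.059 to 0.053 for Stag1, relative differences from -0.051 to 0.072 for Plk1 and -0.081 to 0.011 for Plk4, and local ones from -0.013 to 0.042 for Plk1, -0.0083 to 0.13 for Plk4, -0.16 to 0.077 for Aurka, -0.023 to 0.030 for Rad21, -0.010 to 0.013 for Stag1 and -0.035 to 0.039 for Espl1.

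The 13 member levels past 0.3 in HCC became 24 at a limit of 0.2 and 5 at 0.5. Over the alternatives the adjusted p of limma or the permutation test ran from 0.119 to 0.959 for Espl1 and from 0.165 to 0.979 for Rad21. In simulated data with the same 5 against 3 tissues, the fit of levels recovered 77.5% of differences of 1 and 0% of differences of 0.5, and the fit of relative values 92% and 50.5%. The simulation held no shifts shared by a chromosome or a mouse, so these rates need not hold for the real data.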
